A study of Mus musculus with 8 samples.

Results

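The 7 genes of the mouse that encode the classical inhibitors of cyclin-dependent kinases (CDKs), together with Trp53, its ubiquitin ligase gene Mdm2 and its target Ccng1, were examined across esophageal epithelial cells sorted by autophagic vesicle content. The 10 genes were chosen by name. All 10 were found among the 55276 gene symbols of the deposited count table, and all 10 were among the 17344 genes that passed the filter on low counts. Epithelium was taken from C57BL6 mice aged 14 to 15 weeks. The labels name no allele or transgene, and their treatment entry gives only the sorted fraction. Live cells that carried integrin beta-1 were parted by Cyto-ID, a dye that gathers in autophagic vesicles, into a Cyto-ID Low and a Cyto-ID High fraction. The animals Female1, Female2, Male1 and Male2 each gave 1 library of each fraction, so that 4 libraries stood on either side. Where 4 values of a fraction are listed, their order is that of these animals. The title of the series concerns proliferation and self-renewal of basal cells with many autophagic vesicles, and the CDK inhibitors and p53 are regulators of both.

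CDK inhibitors bind cyclin-dependent kinases or their complexes with cyclins and hold the cell cycle before DNA replication. The Cip/Kip proteins p21 (Cdkn1a), p27 (Cdkn1b) and p57 (Cdkn1c) bind complexes of several cyclins and kinases, while the Ink4 proteins p16 (Cdkn2a), p15 (Cdkn2b), p18 (Cdkn2c) and p19 (Cdkn2d) bind Cdk4 and Cdk6. The transcription factor p53 (Trp53) activates Cdkn1a, Mdm2 and Ccng1 among many targets, and the Mdm2 protein marks p53 for degradation. In stratified epithelia such inhibitors are known to accompany the exit of basal cells from the cycle, and p53 itself is controlled mostly as a protein, which RNA counts do not show.

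The 8 libraries held 26285150 to 29301054 counts each. The High library of Male2 had the fewest genes with a count, 22208, against 24820 to 28266 in the others, and its summed level of 10 fibroblast genes was 48.3 CPM (counts scaled to library size with the TMM factors of edgeR), against 210 to 644 in the other 7 libraries. Of 13 leukocyte genes, summed to 26 CPM there and to 54.9 to 143.9 CPM elsewhere, none was at 0 in every library. In High Male2, Cd68 gave 19.3 CPM of that sum, while Cd74 stood at 3.65, Lyz2 at 0.514 and Ptprc at 0.206 CPM. No endothelial gene of 8 passed the test between fractions, and of 8 tested muscle genes 1 was lower in High (Acta2), as was 1 fibroblast gene (Dcn), while 1 leukocyte gene (Cd68) was higher. The High libraries had 1 order, Female1, Male1, Female2 and Male2 from the highest, in many measures: genes with a count (27395, 26623, 24820 and 22208), the TMM factor (0.944, 0.896, 0.792 and 0.679) and the summed levels of fibroblast, leukocyte, endothelial and muscle genes and of 16 cell cycle genes that the DREAM complex represses. Both libraries of Female2 held gastric transcripts that the others had at 1.39 CPM or less. All 8 basal keratinocyte markers examined were lower in High (summed level 20143 to 23918 CPM in Low and 2726 to 4402 in High), and 6 of 8 suprabasal markers were higher (9418 to 25590 and 134787 to 232555 CPM). In bulk RNA, fewer cells of a type and less RNA per cell cannot be told apart, so each difference below may be either.

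Of the 10 genes, 3 were higher in Cyto-ID High (Cdkn1a, Cdkn2b and Mdm2), 3 were lower (Trp53, Cdkn2d and Cdkn1b) and 4 did not pass the threshold (Cdkn1c, Cdkn2a, Cdkn2c and Ccng1). The test was edgeR's quasi-likelihood test with sex as a covariate and a Benjamini-Hochberg adjusted p under 0.05 over all tested genes. By that rule 48.7% of all tested genes differed, 23.4% of them higher and 25.3% lower as shares of all tested, so the number of genes that differed here was close to the background and their directions were split evenly. The Low and High libraries did not overlap for 7 of the 10 genes, against 48.6% of all tested genes. In 8 of the 10 the sign of High minus Low was the same in all 4 animals, as it was in 64.2% of all tested genes.

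**Figure D1:**
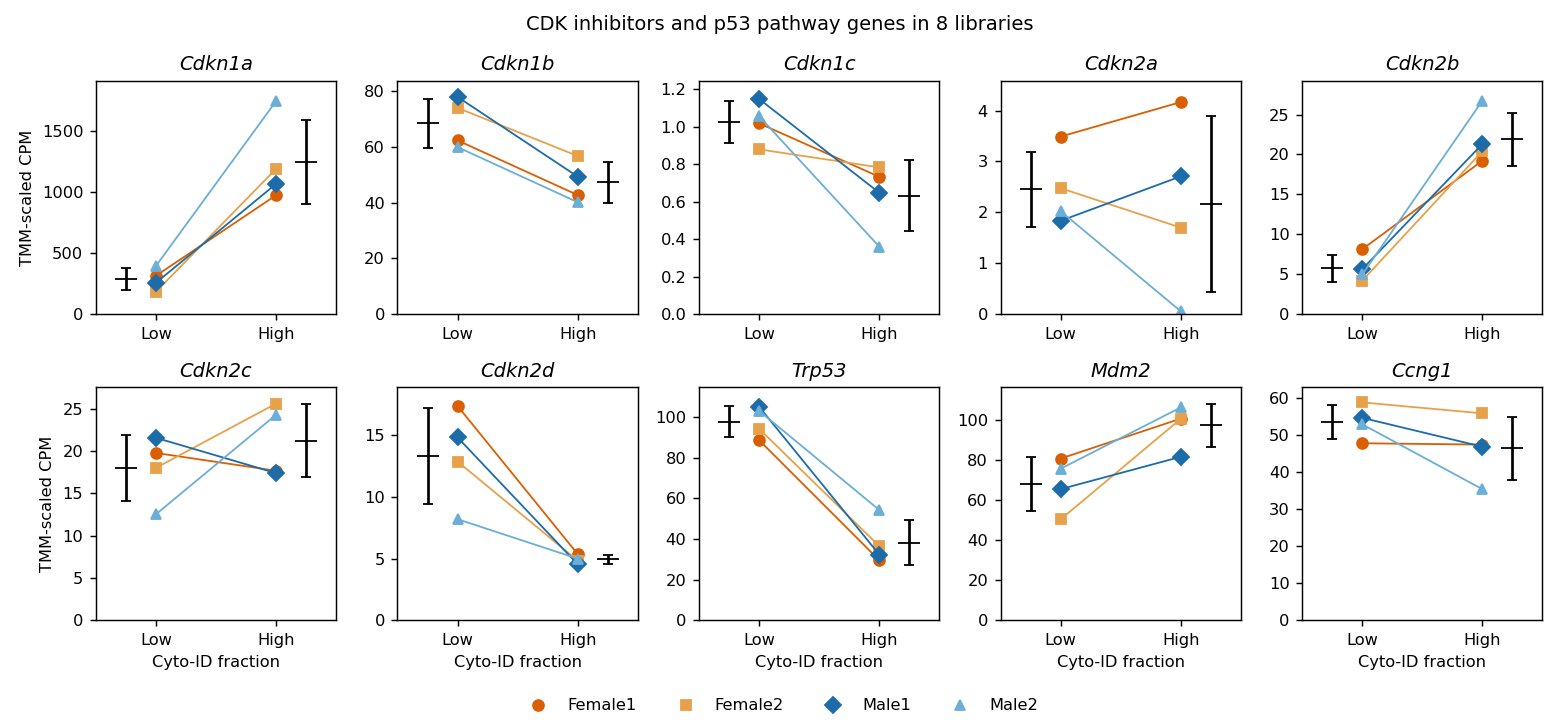
TMM-scaled CPM (vertical axis, from 0, 1 scale per gene) of the 10 genes in the Cyto-ID Low and High library of each animal, where lines join libraries of 1 animal and black bars give mean ± SD (n = 4). Cdkn1a, Cdkn2b and Mdm2 were higher and Trp53, Cdkn2d, Cdkn1b, Cdkn1c and Ccng1 lower in High in every animal. Of these, Cdkn1c and Ccng1 did not pass the threshold. The animals differed in direction for Cdkn2a and Cdkn2c.

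Cdkn1a encodes p21, the inhibitor that p53 induces. In Cyto-ID Low its level was 314, 182, 256 and 395 CPM. In Cyto-ID High it was 976, 1193, 1069 and 1749 CPM. The lowest High library thus stood above the highest Low library, and Male2 was the highest in both fractions. The fitted increase was 4.35-fold, a log2 fold change of 2.12, with SE 0.26 and edgeR adjusted p 0.000115, larger than that of 95% of all tested genes. Within animals the gain was smallest in Female1, at 1.64 log2 CPM, and largest in Female2, at 2.71. Of 12 genes of the stress of cell dissociation 1 was higher (Ier2) and 2 were lower (Jun and Atf3), and their summed level was 16600 to 20768 CPM in Low and 11443 to 25145 in High. Among the High libraries the order of that sum, from the lowest, was Female1 at 11443, Male1 at 14180, Female2 at 19336 and Male2 at 25145 CPM, which was also their order in Cdkn1a. It is the reverse of the order those libraries had in genes with a count, TMM factor and the marker sums of other cell types, so these measures cannot be told apart here. In the Low libraries the orders differed, with the highest sum in Male1 and the highest Cdkn1a level in Male2. The part of dissociation stress in the Cdkn1a difference was not tested. Cdkn1a lies at chr17:29090976-29100727 on the plus strand (GRCm38), and 273 bases of its exons overlap those of AC167363.2 on the other strand, so that its reads are uncertain to that extent.

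The p53 recognition sequence is 20 bases long and consists of a pair of 10-base elements. It was searched without spacer and with at most 1 mismatch in windows from 250 bases before to 50 after each transcript start (RefSeq sequences, GRCm38.p6). The element reads the same on both strands. Windows were given for 9 of the 10 genes, 12 windows in all. The sites are shown because 2 of the 3 p53 targets held one but stood on different sides of the test. In capitals is the match, in lower case the sequence around it, up to the transcript start at most.
Cdkn1a, plus strand, chr17:29090888-29090978: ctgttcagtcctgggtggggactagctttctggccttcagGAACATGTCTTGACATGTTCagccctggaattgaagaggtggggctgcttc
Ccng1, minus strand, chr11:40755422-40755521: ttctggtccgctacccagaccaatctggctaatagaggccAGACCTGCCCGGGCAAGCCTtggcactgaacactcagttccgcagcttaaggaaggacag

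The Cdkn1a match began 51 bases before the more upstream of its 2 listed starts and 2841 bases before the other. The starts are 2790 bases apart. The Ccng1 match began 195 bases before its start. Among all 32851 windows 29 held such a match, or 0.088%. No match was found in these windows of Mdm2, Trp53, Cdkn1b, Cdkn2a, Cdkn2b, Cdkn2c or Cdkn2d, which says only that these letters were not there. A match is a description of the sequence and not evidence of binding in these cells.

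Cdkn1b encodes p27, the Cip/Kip inhibitor of resting cells. Its levels in Low were 62.3, 74.0, 77.9 and 59.9 CPM. In High they were 42.7, 56.7, 49.3 and 40.1 CPM. The groups did not overlap, although the highest High library (Female2) was close to the lowest Low library (Male2). The fitted change was −0.54 on the log2 scale, with SE 0.16 and edgeR adjusted p 0.0175, lower in 4 of 4 animals. The call did not hold when High Female1 (edgeR adjusted p 0.0502), Low Female2 (0.0502) or Low Male1 (0.0571) was left out, or both libraries of Male1 (0.0679) or of Male2 (0.0652). Cdkn1b lies at chr6:134920401-134925513 on the plus strand.

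Cdkn1c encodes p57, an imprinted inhibitor and had the lowest mean level per length of the 10 genes in both fractions, although in High its range overlapped that of Cdkn2a. It had 33, 32, 37 and 35 counts in the Low libraries, and 19, 18, 17 and 7 in the High libraries. Scaled, this was 1.03 ± 0.11 CPM in Low and 0.631 ± 0.189 in High (SD, n = 4 each), and the groups did not overlap. The log2 fold change of −0.70 (SE 0.34) did not pass the threshold (edgeR adjusted p 0.116, with a range of 0.0167 to 0.384 over the alternatives). Exons of Gm44732 overlap 625 bases of Cdkn1c on the other strand, and Gm44732 had no count in any library.

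Cdkn2b, which encodes p15 and is known as a target of TGF-beta signalling, was the Ink4 gene that rose. Its levels in Low were 8.12, 4.18, 5.62 and 4.95 CPM. In High they were 19.2, 20.4, 21.3 and 26.8 CPM. Every High library was above every Low library, and the High libraries lay close together. The fitted increase was 3.82-fold (log2 fold change 1.94, SE 0.23, edgeR adjusted p 9.88e-05), and 94.1% of all tested genes had a lower value. Cdkn2b lies at chr4:89306299-89311039 on the minus strand.

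Its neighbour Cdkn2a, at chr4:89274471-89294653 on the same strand, encodes both p16 and the p53 activator Arf from separate starts, which counts per symbol do not tell apart. Cdkn2a had 113, 90, 59 and 67 counts in the Low libraries, and 108, 39, 71 and 1 in the High libraries. The single count in High Male2 has an exact 95% Poisson interval of 0.0253 to 5.57 counts, which covers counting error only. Within Male2 the ratio of High to Low was 0.0254 (exact 95% interval 0.000635 to 0.147), while Female1 and Male1 were higher in High and Female2 lower. Over all libraries Cdkn2a did not pass the threshold, with a log2 fold change of −0.22, with SE 0.66 and edgeR adjusted p 0.816, and without High Male2 the value was 0.18 (edgeR adjusted p 0.695).

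The order of the High libraries in Cdkn2a, which was Female1, Male1, Female2 and Male2 from the highest, was the order they had in genes with a count, TMM factor and the sums of fibroblast, leukocyte, endothelial, muscle and DREAM genes. The fibroblast sums were 644, 459, 210 and 48.3 CPM in that order, and the leukocyte sums 143.9, 102, 54.9 and 26 CPM. In the Low libraries the order differed, since Male2 had the highest fibroblast sum (642 CPM) but was the third in Cdkn2a at 2.02 CPM. Dcn, the 1 fibroblast gene lower in High, gave 164 CPM of that sum, against 83.9 in Low Female1. For Female1, Female2, Male1 and Male2, High minus Low in log2 CPM was 0.25, −0.53, 0.55 and −4.11 for Cdkn2a. The medians were 0.22, −0.85, 0.60 and −3.72 for the fibroblast genes and 0.22, −0.81, 0.58 and −3.70 for the leukocyte genes. The part of any of these cell types or measures in the Cdkn2a counts was not tested.

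**Figure D2:**
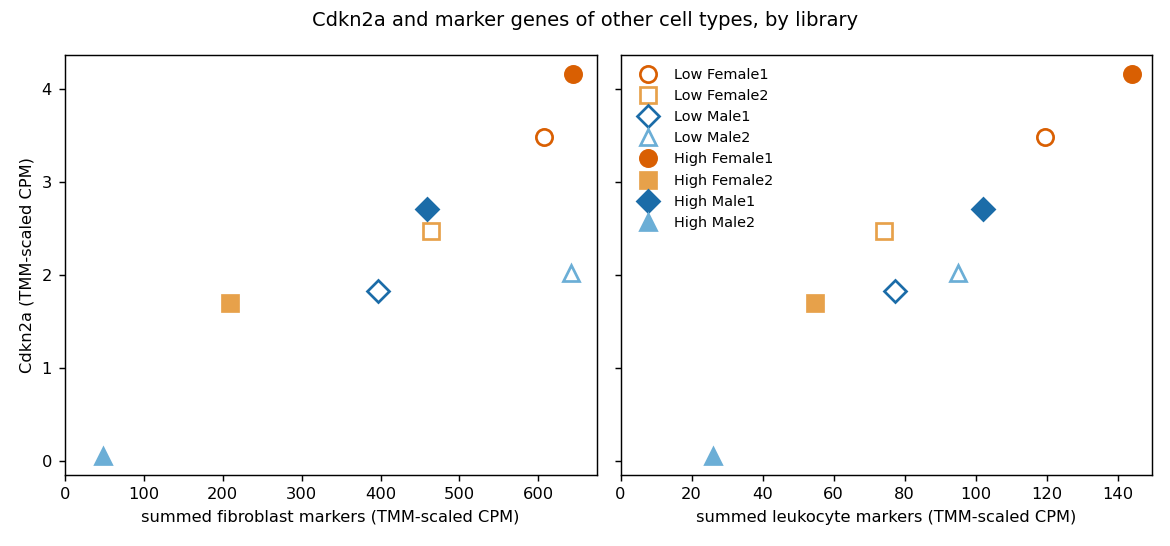
Cdkn2a (vertical axis, TMM-scaled CPM) against the summed level of 10 fibroblast (left) and 13 leukocyte (right) marker genes (horizontal axes, TMM-scaled CPM) in each library, with open symbols for Low and filled symbols for High. High Male2 stands at the bottom left of both panels, and the 4 High libraries have the same order on both axes.

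Cdkn2c and Cdkn2d encode p18 and p19, which many cells make while they cycle. Cdkn2d fell: its levels were 17.3, 12.8, 14.8 and 8.18 CPM in the Low libraries, and 5.36, 4.83, 4.54 and 4.99 CPM in the High libraries. The High libraries were nearly equal, and Low Male2 was the closest to them. The fitted change was −1.42 (SE 0.22, edgeR adjusted p 0.0005), a 2.67-fold decrease. Cdkn2c did not pass the threshold. Its levels were 19.8, 18.0, 21.6 and 12.5 CPM in Low and 17.7, 25.6, 17.4 and 24.3 CPM in High, so that Female2 and Male2 were higher in High and Female1 and Male1 lower (log2 fold change 0.24, SE 0.21, edgeR adjusted p 0.378). Cdkn2d lies at chr9:21288410-21291407 and Cdkn2c at chr4:109660876-109667189, both on the minus strand.

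Trp53, the gene of p53, lies at chr11:69580359-69591873 on the plus strand. Its levels in Low were 88.6, 94.3, 105.1 and 103.1 CPM. In High they were 29.6, 36.6, 32.4 and 54.3 CPM. The groups were far apart, and the High library of Male2 stood above the other 3. The fitted change was −1.37 on the log2 scale, with SE 0.18 and edgeR adjusted p 0.000176, a 2.58-fold decrease. Trp53 thus moved against its target Cdkn1a in each of the 4 animals.

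Mdm2, the ubiquitin ligase that p53 itself induces, lies at chr10:117688875-117710758 on the minus strand. Its levels in Low were 80.9, 50.5, 65.6 and 75.9 CPM. In High they were 100.9, 100.8, 81.8 and 106.5 CPM. The groups nearly met, at 80.9 CPM in Low Female1 and 81.8 in High Male1. The fitted increase was 1.43-fold (log2 fold change 0.51, SE 0.18, edgeR adjusted p 0.0343), higher in 4 of 4 animals. It was lost without High Female1 (edgeR adjusted p 0.0674), High Female2 (0.0774), Low Male1 (0.0663) or High Male2 (0.0836), and without both libraries of Female2 (0.0548), Male1 (0.0638) or Male2 (0.0586). When libraries were scaled by their totals only, its log2 fold change was −0.05, beside a median of all tested genes of −0.64.

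Ccng1 encodes cyclin G1, a p53 target that takes part in the control of Mdm2, and lies at chr11:40748552-40755311 on the minus strand. Its levels were 47.8, 58.8, 54.6 and 52.9 CPM in the Low libraries, and 47.4, 55.9, 46.9 and 35.4 CPM in High. The groups overlapped, with Female1 nearly level between fractions. The log2 fold change of −0.22 (SE 0.15) did not pass the threshold (edgeR adjusted p 0.277).

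**Figure D3:**
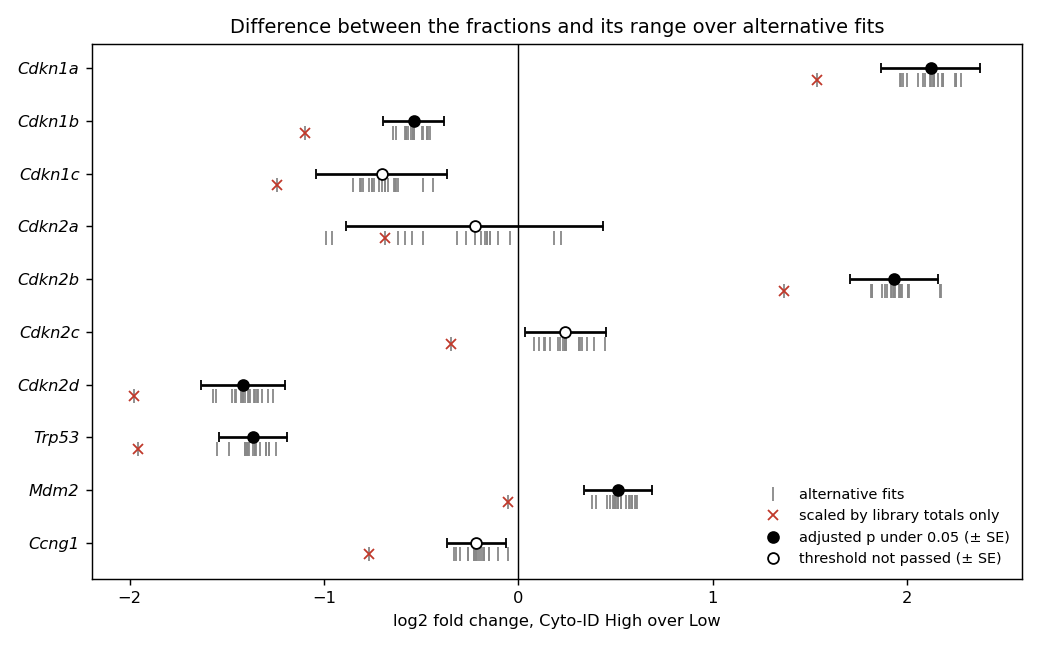
Log2 fold change of Cyto-ID High over Low (horizontal axis) for each gene, with bars of ± SE, filled points where the edgeR adjusted p was under 0.05, grey ticks for each alternative fit and red crosses for scaling by library totals only. The crosses lie left of all other values for every gene except Cdkn2a, and put Mdm2 and Cdkn2c at −0.05 and −0.34.

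The 10 most abundant genes took 6.38 to 8.15% of the counts in the Low libraries and 15.4 to 18.8% in the High libraries. Scaling by totals moved the median log2 fold change of all tested genes from −0.09 to −0.64. Relative to that median, Cdkn1a was at 2.21 with the trimmed mean and 2.17 with totals, Cdkn2b at 2.03 and 2.005, Mdm2 at 0.605 and 0.58, Cdkn1b at −0.45 and −0.46, Trp53 at −1.28 and −1.32, and Cdkn2d at −1.33 and −1.34. By totals only, Cdkn1c (edgeR adjusted p 0.0167) and Ccng1 (0.00566) passed as lower too.

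To compare levels between genes, CPM were divided by the exon length of each gene (all exons of GENCODE M21 merged, so that levels are understated where transcripts use few of them). In Low the order from the highest was Cdkn1a at 80.7 ± 25.3 CPM per kb, Trp53 at 24.2 ± 1.9, Ccng1 at 15.2 ± 1.3, Cdkn1b at 15.1 ± 1.9, Mdm2 at 13.4 ± 2.6, Cdkn2d at 8.44 ± 2.46, Cdkn2c at 6.69 ± 1.45, Cdkn2b at 4.11 ± 1.23, Cdkn2a at 2.09 ± 0.63 and Cdkn1c at 0.503 ± 0.055 (SD, n = 4). The ranges of Ccng1, Cdkn1b and Mdm2 overlapped from one to the next, and so did those from Mdm2 down to Cdkn2b. In High, Cdkn1a at 351 ± 97 CPM per kb was again the first, and above 99.3% of the 33959 genes with a count and a length. Mdm2 at 19.2 ± 2.1 and Cdkn2b at 15.8 ± 2.4 followed, with overlapping ranges, while Trp53 at 9.45 ± 2.75 was the sixth. Only Cdkn1a from Mdm2, and Cdkn2c from Cdkn2d, were parted from the next gene by ranges that did not overlap.

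Summed over the 7 inhibitor genes, the level was 88.0 to 139.9 CPM per kb in Low and 312 to 533 in High. Cdkn1a made up 67.4% ± 8.9 of that sum in Low and 89.6% ± 1.9 in High (SD, n = 4 each). The share of Cdkn1b was 13.4% ± 4.2 and 2.79% ± 0.77, that of Cdkn2d 7.45% ± 2.53 and 0.838% ± 0.204, and that of Cdkn2b 3.51% ± 0.80 and 4.12% ± 0.44. The rise of the sum was therefore mostly that of Cdkn1a.

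**Figure D4:**
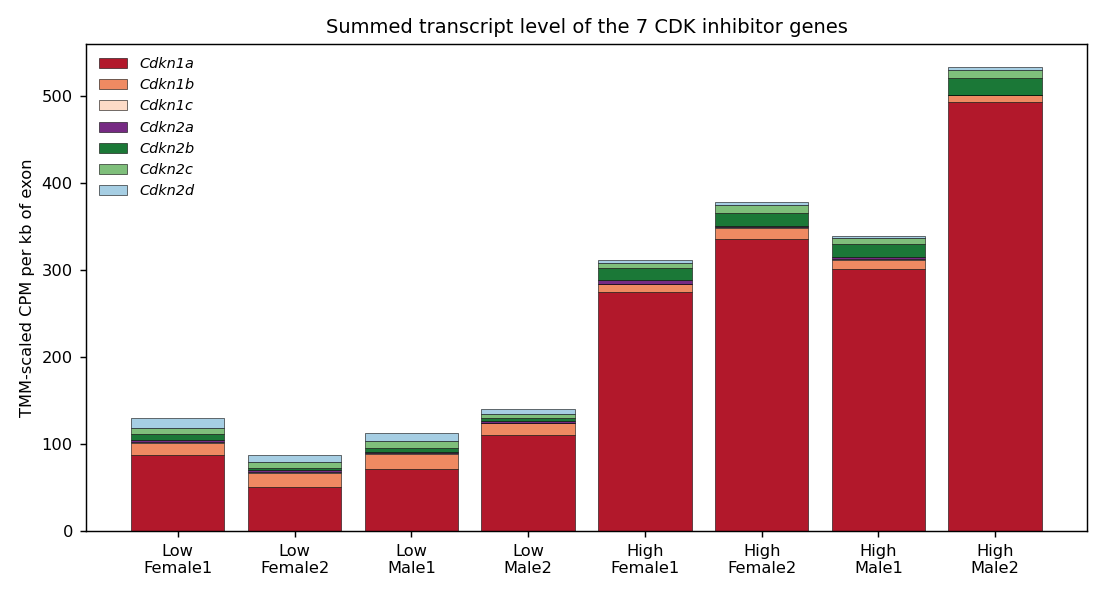
Stacked TMM-scaled CPM per kb of exon (vertical axis, from 0) of the 7 CDK inhibitor genes in each of the 8 libraries. Cdkn1a fills most of every bar, and the 4 High bars (312 to 533) stand above the 4 Low bars (88.0 to 139.9).

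The genes around the inhibitors and p53 were counted on 7 lists of 107 genes in all, 106 of them tested, of which 18 were higher, 56 lower and 32 not past the threshold, beside 23.4% higher and 25.3% lower among all tested genes. The share that passed on the lists of growth arrest and feedback targets (9 of 17) and of regulators of the inhibitors (14 of 25) was near the 48.7% of all tested genes. The CDKs and cyclins that the inhibitors bind fell together: 9 of 10 tested were lower (Cdk1, Cdk2, Cdk4, Cdk6, Ccnd1, Ccnd2, Ccne1, Ccne2 and Ccna2) and none higher, with a median log2 fold change of −1.23 beside −0.09 for all tested genes. The same count was 7 with RLE factors in place of TMM and 5 without both libraries of Female2. The Low and High libraries overlapped for Cdk1 and Ccne1, and Ccne1 was near the threshold (edgeR adjusted p 0.0493). Ccnd2, a D-type cyclin, fell from 214 ± 80 to 21 ± 10.1 CPM (SD, n = 4 each), by 3.36 on the log2 scale, with SE 0.32 and edgeR adjusted p 3.12e-05. Ccna2, the cyclin of S phase and G2, fell from 57.9 ± 20.6 to 7.50 ± 4.75 CPM, by 2.95 (SE 0.48, edgeR adjusted p 0.000692). Ccnd3 was level, at 23.4 ± 3.8 and 23.5 ± 5.0 CPM.

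Genes that p21 is known to repress through the DREAM complex were lower in 15 of 16 cases, with a median of −2.61. Ccnb2, a cyclin of mitosis, changed by −3.42 (SE 0.37, edgeR adjusted p 6.19e-05) and the kinetochore gene Cenpf by −3.35 (SE 0.48, edgeR adjusted p 0.000339). The 16th, Cdc25a, a phosphatase that activates CDKs, was higher by 0.52 (SE 0.17, edgeR adjusted p 0.0251), but by totals only it was at −0.06. Its call was also lost without High Female2 (edgeR adjusted p 0.0894) or High Male2 (0.0747), and without both libraries of Male1 (0.0584) or of Male2 (0.0828).

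Known p53 targets did not move as a block. Of 17 targets of growth arrest and feedback, 7 were higher (Btg2, Plk2, Plk3, Zmat3, Sesn2, Ppm1d and Epha2), 2 lower (Gtse1 and Psrc1) and 8 did not pass. Their median was 0.16 and turned to −0.36 by totals only, with 7 higher and 7 lower. With the animal as a replicate block 5 were lower, and 4 without both libraries of Female2. The kinase gene Plk3 rose from 105.4 ± 25.9 to 588 ± 159 CPM (log2 fold change 2.48, SE 0.22, edgeR adjusted p 2.2e-05). Zmat3, which encodes an RNA-binding protein, rose from 13.1 ± 1.9 to 56.0 ± 5.3 CPM (2.09, SE 0.14, edgeR adjusted p 1.3e-05). Gtse1 and Psrc1, which act on microtubules of dividing cells, changed by −2.53 (SE 0.25) and −1.77 (SE 0.17).

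Of 14 p53 targets of cell death, 3 were higher (Perp, Ei24 and Aen), 7 lower (Fas, Tnfrsf10b, Steap3, Siva1, Pidd1, Apaf1 and Eda2r) and 4 did not pass, among them Bax, Bbc3 and Pmaip1. Their median was −0.55, and 4 were higher with RLE factors or with the animal as a replicate block. Perp, which encodes a desmosome protein of stratified epithelia, was the most abundant and rose from 1934 ± 296 to 5374 ± 1076 CPM (log2 fold change 1.48, SE 0.21, edgeR adjusted p 0.000319). Ei24, whose product of the endoplasmic reticulum is also known from autophagy, rose by 0.99 (SE 0.18, edgeR adjusted p 0.00162). The death receptor gene Fas fell from 20.2 ± 10.9 to 1.48 ± 0.84 CPM, by 3.73 on the log2 scale, with SE 0.43 and edgeR adjusted p 9.44e-05, and Steap3, a ferrireductase gene, by 2.01 (SE 0.40).

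Among 6 p53 targets of DNA repair, 4 were lower and none higher, with a median of −0.43. Ddb2 and Xpc, which recognise damage in nucleotide excision repair, changed by −2.00 (SE 0.25, edgeR adjusted p 0.000149) and −1.63 (SE 0.23, edgeR adjusted p 0.000324). The other calls on this list were Polk and Ercc5. The count of lower genes was 2 without High Female1, Low Female2, Low Male1, High Male1 or High Male2, and without both libraries of Female2, Male1 or Male2.

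Of 18 genes of the p53 family and its regulators, 3 were higher (Hipk2, Cop1 and Usp7) and 9 lower, with a median of −0.41, and by totals only 1 was higher. The kinase gene Hipk2 rose from 31.2 ± 7.5 to 94.2 ± 8.3 CPM (log2 fold change 1.60, SE 0.18, edgeR adjusted p 7.98e-05). Cop1, which encodes a ubiquitin ligase for p53, rose by 0.84 (SE 0.12, edgeR adjusted p 0.000405), and by 0.27 by totals only, where it did not pass (edgeR adjusted p 0.0757). The p53 relative Trp73 fell from 32.1 ± 6.7 to 1.94 ± 0.48 CPM, by 4.04 (SE 0.25, edgeR adjusted p 1.27e-05), and the checkpoint kinase gene Chek2 by 2.30 (SE 0.27).

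Regulators of the inhibitors went both ways, with 4 of 25 higher (Klf4, Id1, Zbtb17 and Foxo3), 10 lower and a median of 0.01, which by totals only was −0.57 with 17 lower. With the animal as a replicate block, or with RLE factors, 6 were higher and 10 lower. Klf4, a transcription factor known to activate Cdkn1a, rose from 1180 ± 280 to 3608 ± 1084 CPM (log2 fold change 1.62, SE 0.24, edgeR adjusted p 0.000419). Id1, a repressor of Cdkn2a, rose by 1.30 (SE 0.19, edgeR adjusted p 0.000397). Dtl, which marks p21 for degradation in S phase, changed by −2.24 (SE 0.26, edgeR adjusted p 1e-04), and Cks1b, which helps to degrade p27, by −1.44 (SE 0.25, edgeR adjusted p 0.00111). Reads of Plk3, Ei24, Ddb2, Trp73, Ccnd2 and Ccna2 are uncertain in part, since their exons overlap those of a gene on the other strand.

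**Figure D5:**
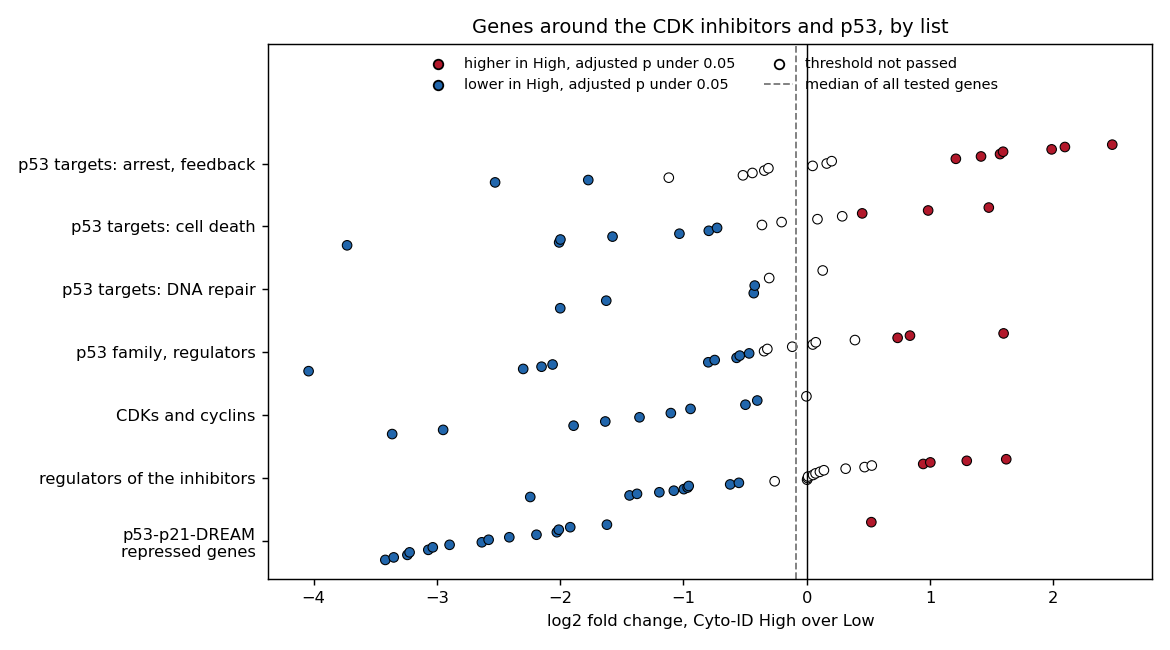
Log2 fold change of Cyto-ID High over Low (horizontal axis) of each tested gene on the 7 lists, 1 point per gene, red where higher and blue where lower at an edgeR adjusted p under 0.05, with the median of all tested genes as a dashed line. CDKs, cyclins and DREAM genes lie almost all to the left, while p53 targets of growth arrest and feedback lie on both sides.

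The difference between fractions was also compared between the sexes. No dependence on sex passed the threshold for any of the 10 genes (edgeR's quasi-likelihood test of the interaction, smallest adjusted p 1.00), none had an unadjusted p under 0.05, and of all 17344 genes 0 passed, a percentage called of 0. Over all genes 19 had an unadjusted p under 0.05, and 38 with the replicate block, where uniform p-values would give 867. The test was thus conservative, and the absence of calls says little about whether the difference depended on sex. The male minus female difference was −0.01 (SE 0.53) for Cdkn1a and 0.20 (SE 0.37) for Trp53, errors that leave room for sizeable differences with 2 animals per sex.

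As a description, genes with a mean of at least 5 CPM were ranked by the likeness of their pattern to each gene that passed, as the Pearson coefficient of log2 CPM over the 8 libraries, which all share the split by fraction. The nearest of 10006 genes were Map3k8, Tgfa and Grhl3 for Cdkn1a, Lrp8, Sipa1l2 and Slc22a23 for Cdkn2b, Ttc6, Tmprss2 and Lrch1 for Trp53, Cep192, Pomt1 and Morc4 for Cdkn2d, Ccdc66, Tfb1m and Zfp280d for Cdkn1b, and Blnk, Sowahb and Eif5b for Mdm2. Coefficients were 0.998 to 0.999 for Cdkn1a and 0.964 to 0.969 for Mdm2.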

How the data were processed

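Bulk RNA was sequenced from 8 sorted libraries. The deposited table holds raw counts by gene symbol, as its whole numbers and unequal totals show. The submitters' processing notes name STAR 2.7.3, DESeq2 and the build GRCm38, while the counting tool, annotation, strand setting and filters are not given in the sources used here. No column was left unused. Libraries of 1 fraction differed by more than sampling noise (chi-square per degree of freedom at least 17.7).

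The analysis used edgeR 4.0.16 under R 4.3.3. Low genes were dropped with filterByExpr by fraction, TMM factors (trimmed mean of M values) set the library sizes, and High was tested against Low with glmQLFit and glmQLFTest, sex as a covariate, and Benjamini-Hochberg adjustment over all tested genes. SEs were derived from the fold change and F. Log2 CPM used a prior count of 2. CPM are TMM-scaled. On simulated counts 200 genes were changed by 1.5 on the log2 scale, and 16956 genes were tested. The fit recovered 69.5% of the changed genes and called 12 others. With the replicate block these were 66.5% and 14. The simulation held no animal effect and fewer changed genes than these data. The members and lists were chosen with earlier results of these data known, and no test was made over a list. Of each list the 2 genes with the largest change in each direction were named with values, among those past the threshold, with a mean of at least 1 CPM and 1 sign in all 4 animals; other names on lists complete a count, and Ccnd3 is given with values as the 1 CDK or cyclin gene that did not pass, chosen after its values were seen.

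By the labels each animal gave 1 library of each fraction, so libraries of 1 animal are pairs, which the main fit treated as independent. Their deviations from the fraction means correlated at 0.43 (Female1), 0.32 (Female2), −0.02 (Male1) and 0.28 (Male2) across genes, which are not independent replicates, while libraries of different animals ranged from −0.37 to 0.35 (Low Female1 with High Male1), so the pairing rests on the labels. Alternatives were RLE factors, library totals, no filter, DESeq2 1.42.0, limma-voom (limma 3.58.1), a minimum of 10 counts in each library, robust dispersion, a fit without sex, a replicate block by animal and leaving out each library. Leaving out both libraries of an animal was added after seeing the data. Coordinates and exon overlaps came from GENCODE M21.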

Additional observations from a re-analysis of the deposited data

Results flagged for a closer look

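Among 46 groups of 4 values examined for a library far from the other 3 by Dixon's test (the 10 genes by fraction, their differences per animal and the marker sums), 2 stood out, where chance gives about 1 in 20. Both were the summed level of 11 gastric genes in Female2. In the Low fraction this animal had 19.85 CPM against 0.664 to 1.39 in the remaining 3, and in the High fraction 117.3 CPM against 1.08 to 1.39. None of the 10 CDK inhibitor and p53 genes stood out in this way, including Cdkn2a in High Male2. Without both libraries of Female2 the log2 fold change was 1.97 for Cdkn1a, 1.89 for Cdkn2b and −1.36 for Trp53.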

How the results depend on the processing

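Of 690 values under alternatives for 33 results, 665 kept their direction and side of the threshold. Cdkn1a (1.54 to 2.28), Cdkn2b (1.37 to 2.17), Cdkn2d (−1.98 to −1.26) and Trp53 (−1.96 to −1.25) did so in all 21. By library totals only, 5 of the 10 genes were lower, Mdm2 was at −0.052, Cdkn2c at −0.34, Cdc25a at −0.062, Cdkn1c at −1.24 and Ccng1 at −0.77, and of all genes 2194 were higher and 8514 lower, against 4055 and 4385, or 20.5% against 48.0% of calls higher. On the lists, that scaling gave 7 lower among arrest and feedback targets, 1 higher among p53 regulators, 17 lower among regulators of the inhibitors and 0 higher among DREAM genes. With no filter, 5 arrest and feedback targets were lower and 0 DREAM genes higher.

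With libraries or animals left out, Cdkn1b ranged from −0.64 to −0.46 (−0.495 without Male1 and −0.47 without Male2), Mdm2 from 0.38 to 0.61 (0.40 without Female2, 0.58 without Male1 and 0.57 without Male2) and Cdkn2a from −0.99 to 0.22, which is 0.18 without High Male2 and 0.22 without that animal. Lower DNA repair targets numbered 2 to 4, lower CDKs and cyclins 5 to 9, lower arrest and feedback targets 2 to 4 and higher DREAM genes 0 to 1. The cause of these changes was not tested. With the animal as a replicate block 9336 genes passed, 8393 of them among the 8440, and 5 arrest and feedback targets were lower; the block changed no call among the 10 genes. Cdkn1c and Cdkn2a gave no value with at least 10 counts in every library. Cdkn1c had 7 to 37 counts a library. The SE of Cdkn2a was 0.66 with and 0.33 without High Male2. The p-values of the main fit measure the spread between libraries within a fraction after sex, and do not use the pairing by animal.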
